A study of Mus musculus with 14 samples.

Results

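The genes described here encode subunits of the oxidative phosphorylation system that are made from nuclear DNA. They were measured by RNA-seq in sorted mouse retinal cells after a Bcor hairpin (shBCOR) or a control plasmid. They were taken by gene symbol alone, as all genes named Ndufa, b, c, s or v with a number, Sdha to Sdhd, Uqcr, Cox4 to Cox8 or Atp5, with pseudogenes left out and the RefSeq records of each gene summed. The rule found 86 of the 26308 genes in the count tables, with 37 in complex I, 4 in complex II, 8 in complex III, 20 in complex IV and 17 in complex V. Ndufa4 and Ndufa4l2 carry the name of complex I subunits and were counted with complex IV, where the NDUFA4 protein is now placed.

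All 4 RNA libraries came from wild-type CD1 mice, whose newborn (P0) eyes took up plasmid by electroporation in vivo, at 1 µg/µl, and were dissected at postnatal day 21. The treated group received pSilencer-shBcor, a plasmid expressing a short hairpin RNA against Bcor, which encodes a transcriptional co-repressor. The control group received the empty vector pSilencer-CAG-Venus, which carries a fluorescent protein and, as an empty vector, no hairpin. Fluorescent cells were sorted after dead cells had been gated out, and several sorts were pooled into each of the 2 replicates per group, so every value comes from electroporated cells of a mixed retinal population. The labels do not give the number of animals or litters per pool, and the p-values measure the spread between pools. The series also holds CUT&RUN peak lists for BCOR and Otx2 on another genome build, which were not used here.

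Oxidative phosphorylation passes electrons from NADH through complex I, or from succinate through complex II, by way of ubiquinone to complex III, cytochrome c and complex IV, where oxygen is reduced. Complexes I, III and IV pump protons across the inner mitochondrial membrane, and complex V, the ATP synthase, uses the gradient to make ATP. All complexes except II also need subunits encoded by mitochondrial DNA, which were not among the records of these tables. Photoreceptors have a high energy demand and pack mitochondria into their inner segments.

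Library totals came to 5107174 and 4973402 counts for control and 3173927 and 4093380 for shBCOR. Oxidative phosphorylation genes took 49131, 48591, 29884 and 32965 of these counts, in the order control 1, control 2, shBCOR 1 and shBCOR 2, which is also the order of every set of 4 values below. These were 0.962, 0.977, 0.942 and 0.805% of the libraries. The lowest share lay in shBCOR replicate 2, and shBCOR replicate 1 was close to the controls. Levels are given as CPM, the counts of a gene relative to the library total after TMM scaling (a correction for differences in composition between libraries), and are not divided by transcript length, so levels of different genes are not compared. Bcor itself had 20, 8, 0 and 13 counts, too few to check the labels, with an estimated log2 fold change of −0.63 ± 2.40 (SE). The 9 counted rod markers, Gnat1 among them, all lay above the controls in both shBCOR libraries, or 6 of 9 without TMM. Over all genes tested 18.6% lay above, and 10.9% without TMM. The rod markers summed to 182000, 183000, 244000 and 207000 CPM with a median log2 fold change of 0.30. After adjustment 0 of them passed in edgeR and 7 by DESeq2, beside 0.0900 and 5.44% of all genes. At an unadjusted p under 0.05 edgeR reached 7, beside 9.30% of all genes. Nrl was at 0 throughout. The 10 ganglion and horizontal cell markers summed to 1900, 1840, 726 and 387 CPM, and Nefm (neurofilament medium chain) was the only one that passed in edgeR, with an adjusted p of 0.0204. In bulk RNA fewer cells of a type and less RNA per cell cannot be told apart. The part of these markers in the results below was not tested.

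Of the 86 genes, 63 had at least 1 count and 23 had 0 counts in every library. Among these members, whether a gene was counted went with its number of RefSeq records. Among the 56 members with 1 record, 6 were at 0 and 46 had counts high enough to test. Among the 30 members with several records, 17 were at 0 and 8 could be tested. Over all genes the contrast was smaller, with 9440 of 17497 genes with 1 record and 5619 of 8811 with several at 0. Subunits that every respiring cell needs were among those at 0. These include Ndufs1, which holds iron-sulfur clusters of complex I, Sdhb, the iron-sulfur subunit of complex II, and Uqcr10 of complex III. Ndufs5, a complex I subunit that every respiring cell also needs, was at 0 with 1 record. A value of 0 therefore gives no measure of expression in these tables, whatever the number of records. Genes with 1 record held 93.6% of all counts.

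**Figure D1:**
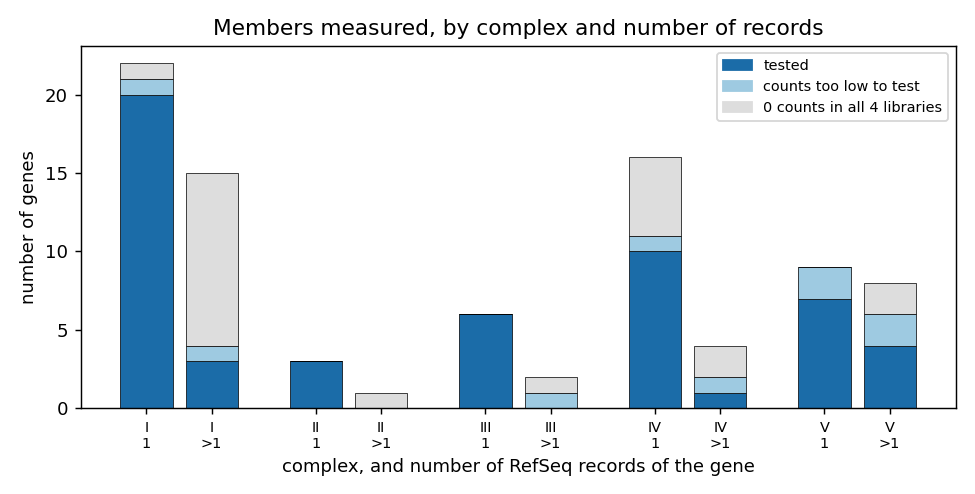
Number of oxidative phosphorylation genes (vertical axis) in each complex, split by whether the gene has 1 or more than 1 RefSeq record (horizontal axis). Dark blue marks genes tested, light blue genes with too few counts to test, and grey genes with 0 counts in all 4 libraries; 17 of the 23 genes at 0 have several records.

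The tested genes numbered 54, with 23 in complex I, 3 in complex II, 6 in complex III, 11 in complex IV and 11 in complex V. Another 9 had some counts but too few to test, among them Atp5g1 and Atp5g2 of the c ring. The members lie on 19 chromosomes. The span of 28 of them, 15 among the tested, overlaps another RefSeq gene. These include Uqcrc2, Atp5a1 and Atp5b, and reads of such pairs cannot be told apart without the strand setting of the counting. The limit that 0 counts allow (3 counts) was 0.587, 0.603, 0.945 and 0.733 CPM of the library total, for counting error only, and it bounds the counted reads, not the expression of the gene.

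Promoter windows of a few members are shown because they hold the elements through which subunit genes are known to be regulated together. NRF1 (nuclear respiratory factor 1), the ETS-family factor GABP and YY1 are known activators of subunit genes. OTX2, which is studied beside BCOR in this series, and CRX bind TAATCC. RefSeq windows on GRCm38.p6, from 250 bases before to 50 bases after each start, were found for 69 of the 86 genes (74 windows), against 32851 windows in all. Each motif was searched on both strands. The NRF1 letters GCGCATGC were in 10 of the 74 windows (13.5%) and in 2.71% of all windows. The ETS letters CCGGAAG were in 17 (23%) and in 8.86% of all, and the YY1 letters AAGATGGC were in 10 (13.5%) and in 2.75% of all. At least 1 of these 3 was in 31 windows (41.9%), against 13.3% of all. The TAATCC letters were in 6 windows (8.11%), against 7.06% of all. A match is a description of letters, not a bound site.

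The 5 windows below show 1 arrangement each, 5′ to 3′ on the gene's strand, with the motif letters in capitals. Ndufs4 (chr13:114388045-114388344, minus strand), an accessory subunit of the matrix arm of complex I, holds the YY1 letters 36 bases into the transcript and, at −189, GGATTA, which is TAATCC on the other strand. Uqcrc1 (chr9:108936398-108936697, plus strand), the core protein of complex III, holds a palindrome that reads as the NRF1 letters on both strands, starting at 31. Cox8a (chr19:7217567-7217866, minus strand), the widely expressed form of subunit 8 of complex IV, holds the ETS letters on the other strand at −5 and again at 33. Atp5k (chr5:108434350-108434649, minus strand), the e subunit of the ATP synthase, holds the NRF1 palindrome at −50. Its ETS letters are on the other strand at 13. Atp5j2 (chr5:145191492-145191791, minus strand), the f subunit, holds the YY1 letters at 24.
Ndufs4: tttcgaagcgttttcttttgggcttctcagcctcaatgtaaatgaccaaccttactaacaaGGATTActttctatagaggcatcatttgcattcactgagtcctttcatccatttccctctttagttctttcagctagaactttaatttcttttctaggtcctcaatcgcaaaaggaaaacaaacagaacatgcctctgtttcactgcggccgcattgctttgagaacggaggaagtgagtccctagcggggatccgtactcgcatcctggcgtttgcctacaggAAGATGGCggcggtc
Uqcrc1: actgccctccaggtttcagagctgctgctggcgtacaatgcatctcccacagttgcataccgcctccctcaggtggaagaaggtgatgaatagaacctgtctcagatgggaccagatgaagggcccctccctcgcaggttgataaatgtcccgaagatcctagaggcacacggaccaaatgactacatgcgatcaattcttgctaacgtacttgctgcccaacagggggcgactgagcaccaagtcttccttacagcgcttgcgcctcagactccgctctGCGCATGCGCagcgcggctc
Cox8a: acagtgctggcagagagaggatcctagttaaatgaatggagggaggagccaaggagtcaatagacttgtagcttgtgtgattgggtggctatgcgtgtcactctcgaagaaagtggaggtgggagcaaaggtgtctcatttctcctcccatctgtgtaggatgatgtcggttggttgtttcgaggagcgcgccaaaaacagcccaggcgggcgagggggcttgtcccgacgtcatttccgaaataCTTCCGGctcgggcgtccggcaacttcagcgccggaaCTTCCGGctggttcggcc
Atp5k: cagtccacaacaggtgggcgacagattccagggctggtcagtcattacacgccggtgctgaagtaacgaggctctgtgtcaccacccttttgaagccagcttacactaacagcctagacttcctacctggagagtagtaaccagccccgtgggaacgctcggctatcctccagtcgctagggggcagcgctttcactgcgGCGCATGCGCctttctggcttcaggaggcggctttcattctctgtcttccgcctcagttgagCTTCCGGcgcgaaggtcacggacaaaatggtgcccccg
Atp5j2: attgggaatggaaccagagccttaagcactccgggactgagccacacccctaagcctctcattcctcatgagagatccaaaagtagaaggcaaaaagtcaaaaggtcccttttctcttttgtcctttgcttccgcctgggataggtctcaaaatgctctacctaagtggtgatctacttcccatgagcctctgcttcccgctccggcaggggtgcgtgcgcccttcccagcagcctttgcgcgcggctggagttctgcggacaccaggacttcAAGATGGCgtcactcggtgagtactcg

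No oxidative phosphorylation gene passed the test between shBCOR and control. Of the 54 genes, 0 had an adjusted p under 0.05 in edgeR's quasi-likelihood test with Benjamini-Hochberg adjustment over all 7775 genes tested, where 7 genes (0.0900%) passed. The smallest adjusted p was 0.524. At an unadjusted p under 0.05, 1 member was reached, Atp5j2, against 723 of all genes tested (9.30%), so the members' share was not above the background. DESeq2 also called 0 members after adjustment (2 at an unadjusted p under 0.05), while it called 410 of 7541 genes (5.44%). The log2 fold changes, shBCOR minus control, were positive in 25 and negative in 29 members. Their median was −0.03 beside −0.01 over all genes tested, and they ranged from −4.93 for Ndufb9 to 2.34 for Atp5pb, both at low counts. Scaling by library size without TMM moved the median of all genes to −0.19 and that of the members to −0.21, so the members lay near the median of all genes under both scalings.

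Both shBCOR libraries lay above both controls in 9 members and below them in 15, with overlap in 30. Over all genes tested, 18.6% lay above and 23.2% below. Without TMM, 3 members lay above and 24 below, beside 10.9 and 31.4% of all genes. The direction of small differences thus depends on the scaling. All these counts are over 54 genes that passed the filter on low counts, not over all members.

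How much change the data could have missed is given by the 95% intervals. The interval lay within 2-fold in either direction for 21 of the 54 members (38.9%) and within 1.5-fold for 6. Over all genes tested the 2-fold share was 24.9%. Among the 39 members with a mean of 100 counts or more it was 53.8%, beside 50.2% of the 3861 genes of that depth, so the higher counts of the members went with the narrower intervals. The 15 members below that mean had a median SE of 1.62 on the log2 scale, and a difference of 2-fold was not detectable in any of them. The biological coefficient of variation in the fit was 0.545.

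**Figure D2:**
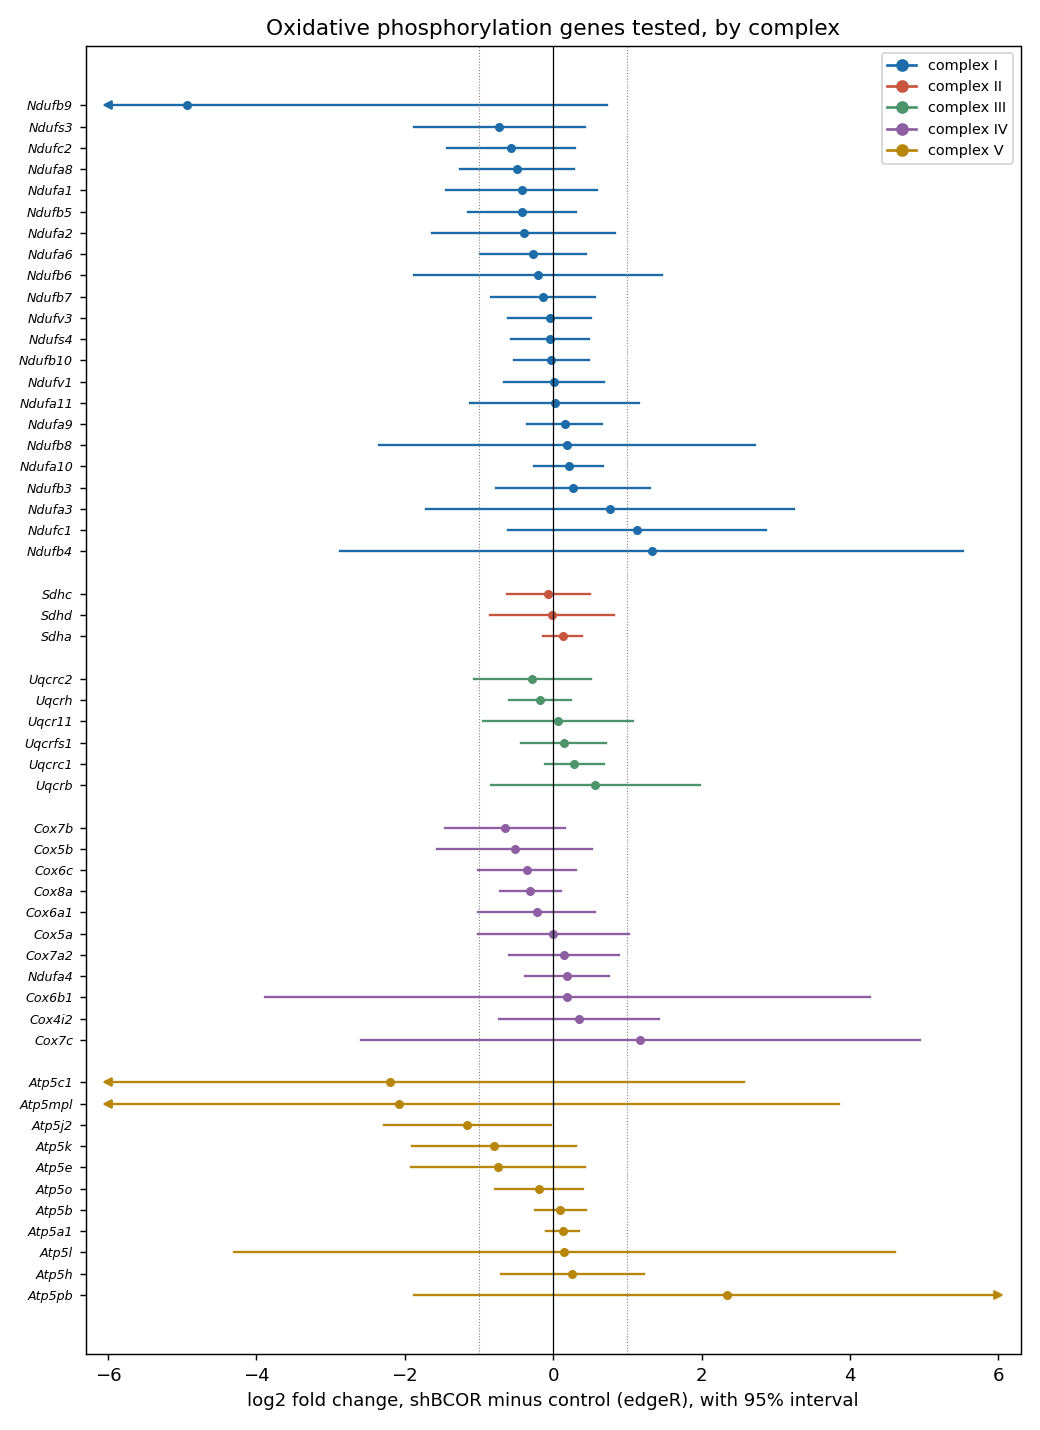
Log2 fold change (horizontal axis, shBCOR minus control, edgeR with TMM) of 53 of the 54 genes tested (vertical axis), with its 95% interval as a line; colours mark the complexes, dotted lines mark 2-fold, and arrows mark intervals that run past the axis. Only the interval of Atp5j2 leaves out 0, at an adjusted p of 0.524, and points near 0 such as Sdha, Atp5a1, Atp5b and Ndufv1 change sign when libraries are scaled without TMM.

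**Figure D3:**
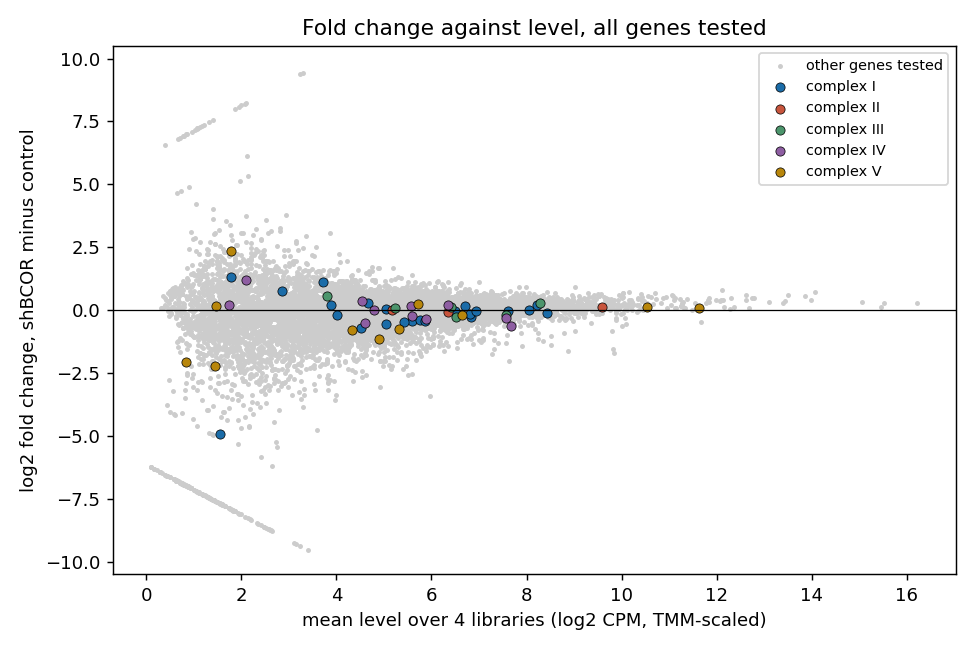
Log2 fold change (vertical axis, shBCOR minus control) against mean level (horizontal axis, log2 CPM) for all 7775 genes tested in grey and the 54 members in the colours of their complexes. Members with low levels spread widely, from −4.93 to 2.34, and those with high levels lie close to 0; the rows of grey points that run obliquely are genes with 0 counts in both libraries of a group.

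The 5 complexes were close to each other in their medians. The median log2 fold change was −0.05 in complex I, −0.02 in complex II, 0.10 in complex III, 0.00 in complex IV and −0.19 in complex V, with no test between them. The signs of the medians of complexes I, II, III and V depend on the setting. The median of complex III was −0.13 without control replicate 1 and −0.07 without TMM. That of complex V was 0.10 with genes of 1 record only and −0.91 without shBCOR replicate 2. Without shBCOR replicate 2 those of complexes I and II were 0.10 and 0.12. The symbol rule leaves out some nuclear subunits, such as Cyc1 of complex III and Ndufab1 of complex I, so the sums are not of whole complexes. Summing the CPM of all members of a complex, tested or not, uses every count of the members. On that scale the log2 ratio of shBCOR to control was −0.06 in complex I, 0.10 in II, 0.07 in III, −0.28 in IV and 0.09 in V. Complex IV was lowest, and its ratio was −0.09 without shBCOR replicate 2 and −0.50 without replicate 1. Cox7b, at 240, 256, 221 and 95.6 CPM, made the largest part of that difference. Of the 11 tested genes of complex IV, 6 had positive and 5 negative estimates. Without TMM the ratios of complexes II, III and V turned negative, at −0.07, −0.11 and −0.09.

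**Figure D4:**
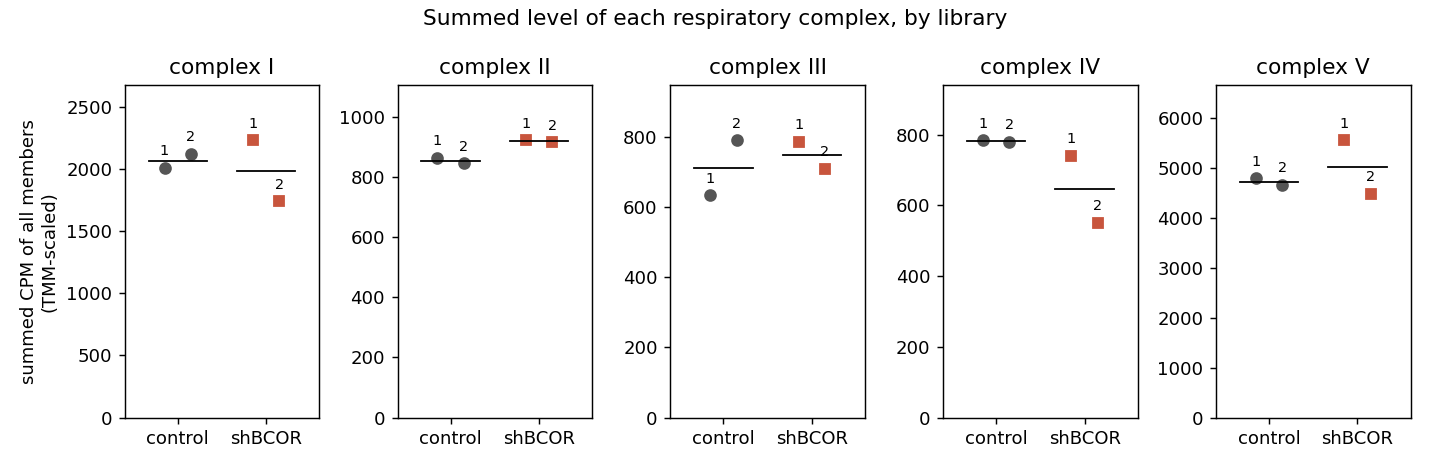
Summed CPM (vertical axis, TMM-scaled) of all members of each complex in each library, with replicate numbers beside the points and the group mean as a line. Complex IV stands at 784, 780, 740 and 551 CPM, and the groups overlap in complexes I, III and V; without TMM the ratios of complexes II, III and V are negative.

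Complex I oxidises NADH in a matrix arm and pumps protons in a membrane arm. Its genes summed to 2010, 2120, 2230 and 1740 CPM, with shBCOR replicate 1 highest and replicate 2 lowest, so the groups overlapped. Of its 23 tested genes 3 lay above, 6 below and 14 overlapped, beside 18.6% above and 23.2% below over all genes tested. The matrix arm (8 of 16 genes tested) had a median of −0.08 and the membrane arm (15 of 21 tested) of −0.02. Ndufv1, which binds NADH and flavin, stood at 243, 287, 351 and 182 CPM. Its shBCOR libraries lay on either side of the controls, and the estimate of 0.01 ± 0.29 (SE) turned to −0.18 without TMM. Ndufa10, an accessory subunit of the membrane arm, stood at 243, 311, 368 and 275 CPM, with the groups overlapping. Ndufs4, whose promoter is shown above, stood at 124, 123, 137 and 103 CPM, a log2 fold change of −0.04 ± 0.22 (SE); it was named for its sequence.

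Ndufc2 and Ndufa8 are among the 6 members of complex I below the controls, and neither passed the test. Ndufc2, an accessory subunit of the membrane arm, stood at 38.7, 40.6, 25.7 and 27.5 CPM, a log2 fold change of −0.57 ± 0.37 (SE) with an adjusted p of 0.713 in edgeR. Ndufa8, an accessory subunit on the intermembrane side, stood at 52.6, 48.1, 33.6 and 38 CPM, a log2 fold change of −0.49 ± 0.33 (SE). The shBCOR values of these genes were close to each other and apart from the controls, and their intervals reached 0.29 and 0.28. Ndufc1 stood at 10.7, 5.88, 10.3 and 26 CPM, with shBCOR replicate 2 alone high. Ndufb9, another accessory subunit of the membrane arm, has 2 records and had 44, 17, 1 and 0 counts. It passed the filter on low counts through its controls alone and was named for its small p. These counts are therefore no support for a difference. In edgeR the log2 fold change of Ndufb9 was −4.93, with an interval of −10.59 to 0.73 that includes 0 and an adjusted p of 0.588. Ndufb4c, with 34, 5, 0 and 0 counts, could not be tested; like Ndufa2 below, it was chosen after its values were seen.

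Complex II, succinate dehydrogenase, also works in the citric acid cycle and is made of nuclear subunits only. It summed to 863, 845, 921 and 914 CPM. Sdha, the flavoprotein that oxidises succinate, made up most of this at 747, 720, 806 and 797 CPM. Both shBCOR values of Sdha lay above both controls under TMM, with a log2 fold change of 0.13 ± 0.11 (SE) that turned to −0.05 without TMM. The interval of Sdha was −0.13 to 0.39, one of the 6 within 1.5-fold. The membrane anchors overlapped between the groups: Sdhc stood at 79.2, 88.1, 76.1 and 83.9 CPM (−0.06 ± 0.24 SE) and Sdhd at 36.3, 36.6, 39.8 and 32.4 CPM (−0.02 ± 0.36 SE). Without TMM all 3 tested genes lay below the controls, beside 31.4% of all genes tested, as that scaling moves all genes.

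Complex III passes electrons from ubiquinol to cytochrome c. Its genes summed to 633, 790, 786 and 709 CPM, with the controls further apart, for their size, than in the other complexes. Uqcrc1, a core protein with the NRF1 palindrome shown above, stood at 244, 315, 351 and 331 CPM. Its log2 fold change was 0.29 ± 0.17 (SE) with an adjusted p of 0.66 in edgeR, and control replicate 2 lay closer to the shBCOR libraries than to control replicate 1. Uqcrc2, the other core protein, stood at 86.1, 116, 109 and 57.9 CPM, with shBCOR replicate 2 alone low. Uqcrh, the hinge protein that contacts cytochrome c1, stood at 192, 211, 194 and 161 CPM, a log2 fold change of −0.18 ± 0.18 (SE). Uqcrb, a ubiquinone-binding subunit, stood at 12.4, 10.2, 14.7 and 18.9 CPM, a log2 fold change of 0.57 ± 0.60 (SE). In this complex 2 of 6 tested genes lay above the controls and 0 lay below under TMM, and 1 lay on each side without it; over all genes 18.6% lay above and 23.2% below under TMM, and 10.9 and 31.4% without it.

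Complex IV, cytochrome c oxidase, reduces oxygen. Here 4 of 11 tested genes lay below the controls in both shBCOR libraries, 1 lay above and 6 overlapped, beside 23.2% below and 18.6% above over all genes tested. Cox7b, on chromosome X, stood at 240, 256, 221 and 95.6 CPM, a log2 fold change of −0.65 ± 0.35 (SE) with an adjusted p of 0.617 in edgeR. The low value was that of shBCOR replicate 2 alone, and replicate 1 was near the controls. Cox8a, with the ETS letters shown above, stood at 222, 201, 185 and 157 CPM, a log2 fold change of −0.31 ± 0.18 (SE) and an interval of −0.72 to 0.11. Cox6c stood at 71.1, 61.4, 50.7 and 52.8 CPM (−0.36 ± 0.28 SE), and Cox5b, which binds zinc, at 33.7, 23.5, 21.6 and 18.4 CPM (−0.52 ± 0.45 SE). In Cox8a, Cox6c and Cox5b the gap between the groups was smaller than the gap between the controls. Ndufa4 was the member above the controls, at 75.5, 77, 80.2 and 93.3 CPM (0.19 ± 0.24 SE).

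Isoforms of cytochrome oxidase subunits that belong to other tissues or states were mostly listed at 0, which, as for Ndufs5, does not show that they were not expressed. Cox6a2 and Cox8b, the heart and muscle forms, Cox7b2 and Cox8c, known from testis, and Ndufa4l2, known as a hypoxia-induced relative of Ndufa4, have 1 record each and were at 0 in all libraries; the spans of Cox6a2 and Ndufa4l2 overlap Itgad and Shmt2. Cox6b2, the testis form, was also at 0 but has 6 records. Cox7a1, the muscle form, had 2, 0, 0 and 0 counts. Cox4i2, known from lung and from low oxygen, was measured at 21.5, 19.3, 31.9 and 20.1 CPM, with overlapping groups; its span overlaps Bcl2l1, whose reads cannot be told apart from its own here. Its widely expressed partner Cox4i1 has 2 records and had 0, 8, 0 and 0 counts, so the ratio of the isoforms cannot be read here.

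The ATP synthase made the largest part of the counts. Complex V summed to 4800, 4670, 5560 and 4490 CPM, and shBCOR replicate 1 lay above the controls while replicate 2 lay below. Atp5b and Atp5a1 made up most of this sum. Of the 11 tested genes 2 lay above, 5 below and 4 overlapped, beside 18.6% above and 23.2% below over all genes. Without TMM 1 lay above and 7 below, beside 10.9 and 31.4% of all genes. Atp5b, the catalytic beta subunit of the F1 head, stood at 3130, 2940, 3780 and 2720 CPM, a log2 fold change of 0.10 ± 0.15 (SE) that turned to −0.08 without TMM. Atp5a1, the alpha subunit of the same head, stood at 1410, 1410, 1570 and 1520 CPM, a log2 fold change of 0.13 ± 0.10 (SE), −0.04 without TMM. Its interval of −0.09 to 0.35 was the narrowest of all members named here. Atp5e, the epsilon subunit of the central stalk, stood at 46.3, 53.5, 15.4 and 43.8 CPM, with shBCOR replicate 1 alone far below. The log2 fold change of Atp5e was −0.74 ± 0.51 (SE), and Atp5o of the peripheral stalk overlapped between the groups at 104, 108, 75.4 and 110 CPM.

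The small membrane subunits of the ATP synthase, which help hold its dimers together, had the lowest median of the subgroups with tested genes. They summed to 59.8, 86.1, 38.4 and 39.3 CPM, and the median of the 4 tested was −0.98, with a median SE of 1.20. Besides the 2 described next, Atp5mpl had 19, 12, 4 and 0 counts, Atp5l had 16, 12, 5 and 16 (0.15 ± 1.92 SE, groups overlapping), and Atp5md, too low to test, had 0, 4, 4 and 10, so the members did not share a direction. Atp5j2 stood at 27, 55.7, 20.2 and 16.8 CPM, a log2 fold change of −1.16 ± 0.48 (SE) with an interval of −2.29 to −0.04 and an adjusted p of 0.524 in edgeR. The controls of Atp5j2 differed from each other by more than the lower control differed from the shBCOR libraries. Atp5k stood at 26.3, 25, 13.7 and 15.8 CPM, a log2 fold change of −0.79 ± 0.47 (SE) with an adjusted p of 0.666. Its controls lay close together and both shBCOR values below them; Atp5k has 2 records. The promoters of both genes are printed above and share none of the searched motifs. In the c ring, which turns with the proton flow, Atp5g1 had 17, 10, 0 and 0 counts. It was named because of these zeros, so they are no support for a difference, and a 0 gives no measure of expression here. The rule that named it set the groups apart in advance, so no ratio is given. Atp5g1 could not be tested, has 2 records, and its sister genes Atp5g2 and Atp5g3 had 0, 20, 0 and 8 counts and 0 counts, so no level of the ring can be given.

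**Figure D5:**
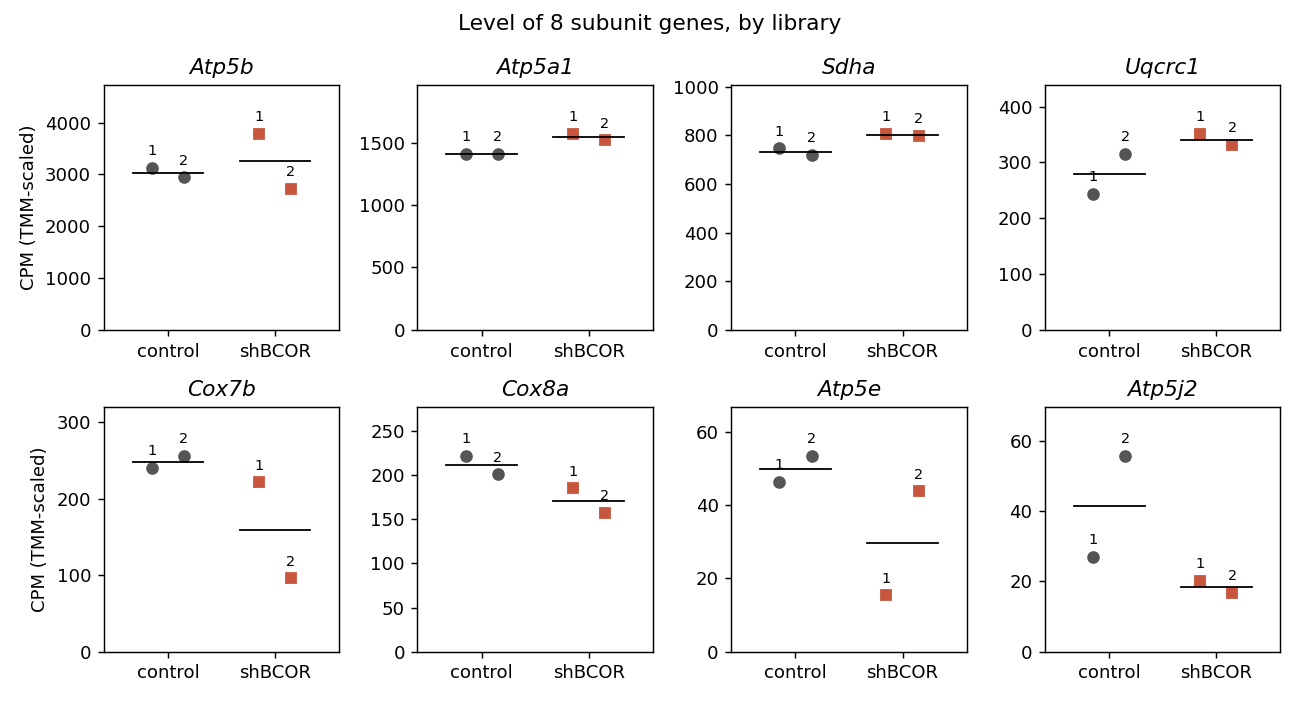
CPM (vertical axis, TMM-scaled, from 0) of 8 subunit genes in each library, with replicate numbers above the points and group means as lines. Cox7b is low in shBCOR replicate 2 alone and Atp5e in replicate 1 alone, while Atp5j2, at 27 and 55.7 CPM in the controls, is lower in both; Sdha, Atp5a1 and Atp5b change sign without TMM.

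The shBCOR replicates differed from each other by more than the controls did. Their totals were also lower (3173927 and 4093380 counts, against 5107174 and 4973402 in the controls), and the part of depth was not tested. Over the 39 members with a mean of 100 counts or more, the median absolute log2 difference between replicates was 0.20 in the controls and 0.32 in shBCOR, and it was wider in shBCOR for 26 (66.7%). Over the 3861 genes of the same depth the medians were 0.23 and 0.34, and 61.7% were wider in shBCOR, so the members were near the background. In direction, 27 of 39 were higher in shBCOR replicate 1 and 12 in replicate 2, with a median log2 difference (replicate 2 minus 1) of −0.26 beside 0.00 over all genes. The median was −0.37 in complex I (17 genes) and −0.01 in complex II (3 genes). Single genes reached −1.21 for Cox7b and 1.48 for Atp5e. No test was made of this difference, which lies within a group. Marker lists differed between the same 2 libraries as well. From shBCOR replicate 1 to replicate 2 the summed CPM was 244000 and 207000 for rod, 1090 and 699 for cone, 726 and 387 for ganglion and horizontal cell, 994 and 1360 for bipolar, 3200 and 4010 for Müller glia and 0 and 19.6 for pigment epithelium markers. For the other lists it was 20.9 and 31.4 for amacrine, 4.46 and 6.37 for microglia, 340 and 378 for vascular and 13.4 and 21.4 for astrocyte markers. The part of the marker lists in the difference was not tested.

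Of the alternatives run, calls appeared among the members only where a shBCOR library was left out. Without shBCOR replicate 1, edgeR called 2 members, Cox7b at −1.37 (adjusted p = 1.74e-06) and Ndufa2, a matrix arm subunit, at −1.54 (adjusted p = 0.0153), among 525 of 8938 genes (5.87%). Without shBCOR replicate 2 it called 2 others, Atp5b at 0.30 (adjusted p = 0.00506) and Atp5e at −1.70 (adjusted p = 0.025), among 491 of 8786 genes (5.59%). In these fits the shBCOR group is 1 library, assumed to vary like the controls. None of the 4 was called in both fits, and Atp5b stood at −0.16 without shBCOR replicate 1.

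Genes that work around the respiratory chain were described from 6 lists. In edgeR 0 of their genes passed after adjustment, and DESeq2 called 1, Mrpl18. At an unadjusted p under 0.05 edgeR reached 1 of the other subunits and carriers, 0 assembly factors, 1 gene of the citric acid cycle list, 1 regulator, 4 mitochondrial ribosome genes and 2 import genes, of 12, 32, 14, 12, 56 and 13 tested, beside 9.30% of all genes. DESeq2 called 5.44% of all genes after adjustment. Shares of all genes above and below the controls, against which the counts of the lists are read, were 18.6 and 23.2%. Among other subunits and carriers (12 of 14 tested, median −0.10) Slc25a5, an ADP/ATP carrier, stood at 152, 194, 243 and 237 CPM (0.48 ± 0.18 SE), and Etfa, which feeds electrons from fatty acid oxidation, at 10.9, 5.88, 30.5 and 16.1 CPM (1.46 ± 0.65 SE). Both lay above the controls in both shBCOR libraries, with adjusted p-values of 0.477 and 0.552. Among assembly factors (32 of 49 tested, median 0.01) Ndufaf4 of complex I had a log2 fold change of 0.69 ± 0.31 (SE) and Sdhaf1 of complex II of −0.51 ± 0.23 (SE). Among citric acid cycle and pyruvate dehydrogenase genes (14 of 18 tested, median 0.18) 5 lay above and 1 below. The gene below was Idh3b, a subunit of isocitrate dehydrogenase, at 29.6, 33, 14.7 and 14 CPM, and Fh1, fumarate hydratase, was among those above at 50.2, 58.4, 81.2 and 84.1 CPM.

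The machinery that makes and imports mitochondrial proteins had medians below that of all genes at the TMM scaling used here, with no test of that difference. Among mitochondrial ribosome genes (56 of 78 tested) the median was −0.14, with 8 above and 15 below the controls, shares near those of all genes (18.6 and 23.2%). Mrpl24 stood at 56.1, 51.6, 28.1 and 27.8 CPM (−0.94 ± 0.34 SE). Mrpl18 stood at 142, 114, 87.8 and 64.7 CPM (−0.75 ± 0.26 SE), with an adjusted p of 0.406 in edgeR and 0.0479 in DESeq2. For both genes all shBCOR values lay under the controls. Among import genes (13 of 26 tested, median −0.19) 0 lay above and 4 below, beside 18.6 and 23.2% of all genes. The list was taken by symbol, and the 4 include Tomm6os, by its name an opposite-strand transcript rather than an import gene. Tomm6os had 24, 12, 0 and 7 counts. Tomm20, a receptor of the outer membrane, stood at 189, 192, 138 and 132 CPM (−0.50 ± 0.18 SE), and Tomm40l stood at 90.3, 93.6, 61.7 and 46.9 CPM (−0.76 ± 0.27 SE). Their adjusted p-values were 0.419 and 0.427. Among regulators of mitochondrial genes (12 of 20 tested, median 0.19) 3 lay above and 0 below. Mterf4, which acts on the mitochondrial ribosome, had 16, 29, 65 and 61 counts (2.15 ± 0.76 SE, adjusted p 0.427), and Esrrb, a photoreceptor-expressed orphan receptor, stood at 31.7, 17.8, 45.6 and 31.9 CPM. Of the genes for the activators named with the promoters, Gabpa stood at 129, 161, 157 and 140 CPM and Yy1 at 171, 128, 182 and 143 CPM, with overlapping groups. Gabpb1, for the other subunit of GABP, has 10 records and stood at 2.59, 0, 6.51 and 3.31 CPM, with both shBCOR values above the controls (1.90 ± 2.29 SE, adjusted p 0.903). Nrf1 (10 records) was at 0 throughout.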

How the data were processed

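RNA-seq counts of 4 libraries were analysed. Per the labels' protocols, 3.0 to 5.1 ng of RNA entered ribosomal RNA depletion, followed by strand-marking, randomly primed library preparation with 15 cycles of PCR. The authors deposited whole-number HTSeq counts per RefSeq record, per the labels. Trimmomatic, TopHat, DESeq2, mm10 and mm9 also appear in the submitters' processing notes. No source used here states the strand setting, or how reads shared by records were treated. Of 45895 records per table, 45744 (99.7%) matched a symbol in a GRCm38.p6 RefSeq table and were summed per gene. Records without a symbol, 0.324 to 0.605% of counts, were kept by ID. All columns of the tables were used.

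Genes were filtered with filterByExpr, TMM-scaled (factors 1.06, 1.06, 0.921 and 0.961) and tested with edgeR 4.0.16 (quasi-likelihood, robust) in R 4.3.3, with Benjamini-Hochberg adjustment over 7775 genes at 0.05. SEs were derived from the F statistic, and intervals (95%) from the t distribution. With 2 libraries per group an exact permutation test cannot go below p = 0.333, so none was used for summed levels. Steps were tested on simulated data. Alternatives were DESeq2 1.42.0, other scalings, filters and record handling, equal depth, a gene span offset, a replicate block and leaving out each library; scaling without TMM was added after seeing the data. Named genes were the 4 with the smallest p and the 3 with the highest CPM per complex, genes at 0 in 1 group with 10 or more counts in each library of the other, isoforms of other tissues, and the 2 with the smallest p in each other list; 1 gene of complex I that the rule names is not reported here. The members and lists were chosen with earlier results of these data known. Marker lists for cone, bipolar, amacrine, Müller, microglial, vascular, astrocyte and red blood cells were also measured; their median log2 fold changes were −0.30, −0.47, −2.48, −0.38, −1.13, −0.96 and −0.60, in that order, and red blood cell genes were at 0. Precision is set by counts: totals ran from 3173927 to 5107174.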

Additional observations from a re-analysis of the deposited data

How the results depend on the processing

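The call of 0 members held under every alternative that kept all 4 libraries, and the number of genes called among all genes did not hold: 7 became 410 with DESeq2, 205 with no filter on low counts, 30 with genes of 1 record only, 13 at equal depth and 29 by library size without TMM. Leaving out each library in turn gave 4 to 525 genes and 0 to 2 members; the cause was not tested. The replicate numbers did not pair the libraries (correlation of deviations −0.01, 2 pairs), and the replicate block gave 23 genes and 0 members, with a member median of −0.06.

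By library size without TMM the member median became −0.21 and the summed ratio −0.15, the medians of complexes II and IV −0.19 and −0.18, and the summed ratios of II, III and V −0.07, −0.11 and −0.09; this scaling moves all genes. The complex II median was 0.14 with the gene span offset and its summed ratio 0.09 at equal depth; the complex IV median was −0.23 with no filter, which tests more genes. With each library left out, the member median ran from −0.24 to 0.00 and the summed ratio from −0.12 to 0.15. The medians ran from −0.30 to 0.10 in complex I, −0.03 to 0.12 in II, −0.13 to 0.37 in III, −0.33 to 0.06 in IV and −0.91 to −0.05 in V. The summed ratios ran from −0.25 to 0.10 in I, 0.09 to 0.11 in II, −0.09 to 0.24 in III, −0.50 to −0.09 in IV and −0.08 to 0.22 in V. Complex III was negative in both without control replicate 1, and its median was −0.07 without TMM. The complex V median was 0.10 with genes of 1 record only. The offset and the block give no summed levels.

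Of 565 values of the 38 named tested genes under alternatives, 543 kept sign and call, 5 gained a call and 17, in 10 genes, changed sign. By library size without TMM these were Ndufv1 (−0.18), Sdha (−0.05), Atp5a1 (−0.04) and Atp5b (−0.08). With each library left out, values ran from −0.01 to 0.40 for Ndufa10, −0.54 to 0.40 for Ndufv1, −0.15 to 0.01 for Sdhc, −0.17 to 0.12 for Sdhd, −0.80 to 0.10 for Uqcrc2, −0.16 to 0.30 for Atp5b, −0.50 to 0.06 for Atp5o and −0.02 to 0.63 for Cox4i2; the causes were not tested. Ndufv1 was also −0.06 with the replicate block, and Sdhd was 0.03 at equal depth and 0.14 with the gene span offset. Mrpl18 was called by DESeq2 and, at −0.98, without shBCOR replicate 1 (edgeR adjusted p = 0.0205). Depth limits the 15 members with a mean under 100 counts and the genes with several records.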
